A study of Mus musculus with 6 samples.

Results

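The 10 genes described here are members of the negative feedback and early transcriptional output of ERK, the kinase that carries VEGF and other growth factor signals to the nucleus. They are the Sprouty genes Spry1, Spry2 and Spry4, the Sprouty-related genes Spred1 and Spred2, the MAP kinase phosphatases Dusp4, Dusp5 and Dusp6, and the ETS factors Etv4 and Etv5. They were chosen by symbol from 19124 gene symbols of the deposited table, and all 10 were among the 16217 genes with enough counts to be tested. The series measured messenger RNA of CD31-sorted cells from the retinas of C57BL/6 pups at postnatal day 7, in 3 Ctrl and 3 KO libraries, each from a different pup by its source name. The Ctrl pups were Pdgf{beta}CreERT2neg Rnf20p/p and the KO pups Pdgf{beta}CreERT2pos Rnf20p/p, and both received 75 µg of Z-4-HO-Tamoxifen daily from day 1 to day 4. Pdgfb is made by endothelium, and CreERT2 is a recombinase that acts once tamoxifen is given. The labels do not say what the p allele is, how much of the gene is deleted, or the sex of the pups. The title of the series puts the question as the effect of the amount of Rnf20, a ubiquitin ligase for histone H2B, on VEGF and Notch signalling in growing vessels.

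In endothelium, VEGF bound to its receptor Kdr (VEGFR2) activates phospholipase C and the Ras, Raf, MEK and ERK kinases, which drive sprouting, division and arterial identity. Active ERK induces its own inhibitors. Sprouty and Spred proteins act on the pathway at or above Ras and Raf, and the phosphatases Dusp4, Dusp5 and Dusp6 remove the activating phosphates from ERK itself. Etv4 and Etv5 are transcription factors whose mRNAs rise with ERK activity, so all of these mRNAs are used as readouts of the pathway.

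The libraries held between 14581701 and 30692948 counts. Levels are in CPM, which are counts scaled to library size with TMM factors. Rnf20 itself was between 47.9 and 57.1 CPM in the Ctrl libraries and between 31.0 and 39.1 CPM in the KO libraries. Each KO library lay below each Ctrl library, and the difference did not pass the test (log2 fold change −0.67, SE 0.235, adjusted p = 0.101; throughout, adjusted p-values are Benjamini-Hochberg values from the quasi-likelihood test of edgeR). Endothelial marker levels differed between the groups. The 15 endothelial markers summed to between 3483 and 5393 CPM in Ctrl and between 10843 and 15227 CPM in KO, none of them was at 0 in any library, and 10 rose and 0 fell in KO (median log2 fold change 1.45). Among them, Cldn5, a tight junction protein of retinal vessels, rose by 1.79 on the log2 scale. The 14 photoreceptor markers summed to between 19926 and 35634 CPM in Ctrl and between 5049 and 24789 CPM in KO, so photoreceptor genes were detected in every CD31-sorted library. In such bulk samples, more cells of a type and more RNA per cell cannot be told apart.

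Of the 10 feedback genes, 1 rose, 0 fell and 9 did not pass edgeR's adjusted test at 0.05, and at an unadjusted p below 0.05 the count was 3 higher and 0 lower, against 16.2% of all genes tested that were higher at that level. DESeq2 called 3 higher and 0 lower, against 12.6% of the 16114 genes it gave an adjusted p that were called higher. With edgeR's adjusted test the share called over all genes was 10.3%, and 5.85% were called higher in KO, so the members' count of calls was near that over all genes. Spry1 was the member called. In 4 members, Spry1, Spry4, Etv4 and Dusp6, every KO library lay above every Ctrl library, and in 0 members every KO library lay below, while 19.0% of all genes tested were separated in the upward way. The median log2 fold change of the members was 0.27, with 8 above and 2 below 0, against 0.03 for all genes tested. The plot of the members by library shows all values.

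**Figure D1:**
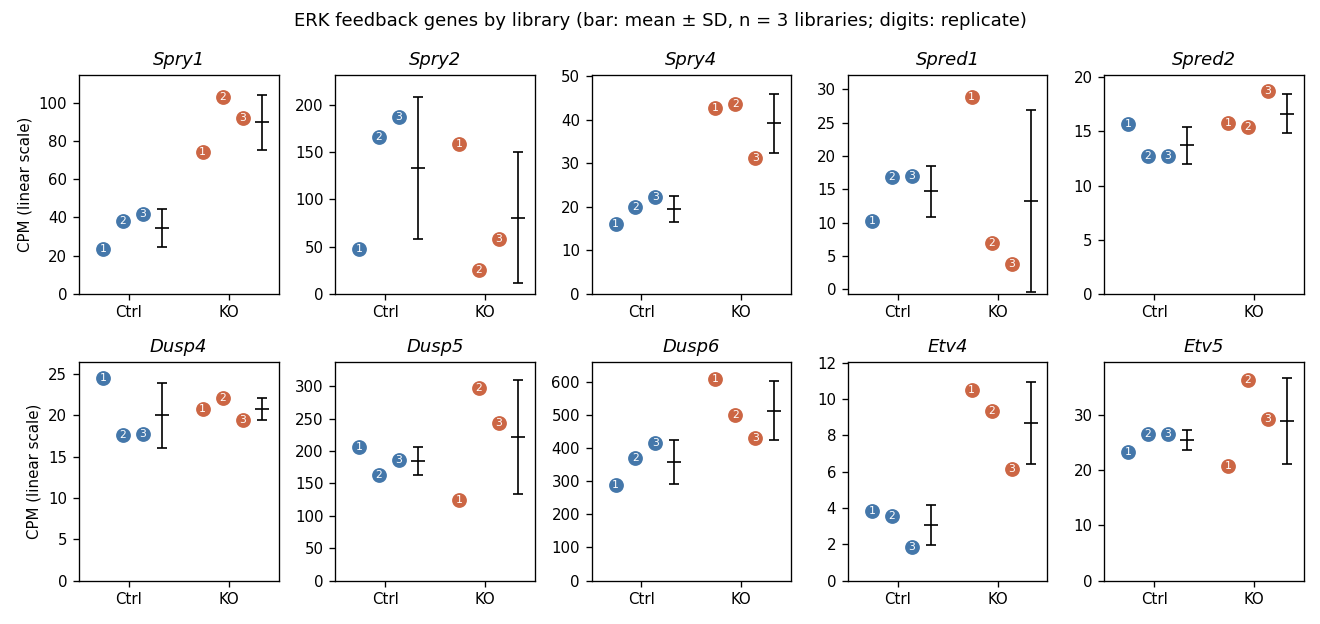
Levels of the 10 ERK feedback genes in CPM on a linear scale, by library. Each numbered point is 1 library (the digit is the replicate), blue for Ctrl and orange for KO, and the bar beside each group is the mean ± SD of 3 libraries. Spry1, Spry4, Dusp6 and Etv4 do not overlap between groups. Spry2 and Spred1 are spread widely within each group.

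Spry1 (NM_001305442, chromosome 3, 37639947 to 37644599, plus strand, GRCm38.p6), a Sprouty protein that restrains growth factor signalling to ERK, was at 23.3, 38.3 and 41.6 CPM in Ctrl 1, 2 and 3. In KO 1, 2 and 3 it was at 74.2, 103 and 92.0 CPM, from between 638 and 2685 counts per library. The highest Ctrl library was well below the lowest KO library. The group mean went from 34.4 ± 9.75 to 89.7 ± 14.4 CPM (SD, n = 3 each), a ratio of 2.61. With a log2 fold change of 1.38 (SE 0.292) Spry1 passed edgeR's adjusted test (adjusted p = 0.030, from 0.000823 to 0.736 over 16 alternatives, passing in 7). The exact permutation test over libraries gave p = 0.1, the smallest that 3 against 3 allows. The fold change stayed above 0 in all 16 alternatives. The fits in which the call was lost included those with offsets for transcript GC content (0.97, adjusted p = 0.0531), with libraries scaled to equal endothelial markers (0.15, adjusted p = 0.736), and those without any single library other than KO 1 (1.17, 1.47 and 1.54 without Ctrl 1, 2 and 3, and 1.30 and 1.42 without KO 2 and 3). The authors' deposited table gives Spry1 a log2 fold change of 1.48 and an adjusted p of 0.000393. An annotated gene on the opposite strand, Gm42922, overlaps Spry1, and this preparation does not mark the strand, so its reads could not be told apart from those of Spry1.

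Spry4 (NM_011898, chromosome 18, 38586247 to 38601347, minus strand), a Sprouty gene whose product also acts on Ras and Raf, was at 16.1, 20.0 and 22.2 CPM in Ctrl 1, 2 and 3. It was at 42.6, 43.5 and 31.2 CPM in KO 1, 2 and 3, so all KO libraries were higher than all Ctrl libraries. The mean went from 19.4 ± 3.05 to 39.1 ± 6.84 CPM (SD, n = 3 each), a ratio of 2.01, with an exact permutation p of 0.1. The log2 fold change of 1.01 (SE 0.272) fell just short of the threshold in edgeR's adjusted test (adjusted p = 0.0529, from 0.00869 to 0.540 over 16 alternatives, passing in 4). It passed with DESeq2, the size factors of DESeq2 used in edgeR (1.05), GC offsets (0.91) and the fit without KO 1 (1.02). With libraries scaled to equal endothelial markers the sign turned to −0.27. The authors' deposited table has Spry4 at a log2 fold change of 1.10 with an adjusted p of 0.00448. Annotated genes on the opposite strand, Gm27369 and Gm27804, overlap Spry4, so their reads could not be told apart from those of Spry4.

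Spry2 (NM_011897, chromosome 14, 105891947 to 105896819, minus strand), the Sprouty gene with the highest level per length in Ctrl and the only one below 0 in fold change, varied widely within both groups. It was at 47.7, 167 and 187 CPM (Ctrl 1, 2 and 3) and at 158, 25.0 and 58.0 CPM (KO 1, 2 and 3). KO 1 lay among the high Ctrl libraries and Ctrl 1 among the low KO libraries, so the groups overlapped, and the highest library was 7.48 times the lowest. These levels rest on between 628 and 4043 counts per library, so counting error is small beside the spread. Group means were 134 ± 75.3 CPM for Ctrl and 80.5 ± 69.5 CPM for KO (SD, n = 3 each), and the log2 fold change of −0.73 (SE 0.701) did not pass edgeR's adjusted test (adjusted p = 0.512, from 0.0243 to 0.837 over 16 alternatives). Without KO 1 the log2 fold change of Spry2 was −1.63 (adjusted p = 0.0754). The only alternative Spry2 passed was the scaling to equal endothelial markers (−1.88).

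The promoters of Spry1 and Spry2 are shown as the upstream sequence of a Sprouty gene that was called and of one that was not. Each is the 250 bases before the annotated start, 5′ to 3′ on the gene's strand, from RefSeq (GRCm38.p6), with the ETS core GGAA (or its complement) in capitals. ETS factors, Etv4 and Etv5 among them, bind sequences around this core.
Spry1, chr3:37639697-37639946, plus strand: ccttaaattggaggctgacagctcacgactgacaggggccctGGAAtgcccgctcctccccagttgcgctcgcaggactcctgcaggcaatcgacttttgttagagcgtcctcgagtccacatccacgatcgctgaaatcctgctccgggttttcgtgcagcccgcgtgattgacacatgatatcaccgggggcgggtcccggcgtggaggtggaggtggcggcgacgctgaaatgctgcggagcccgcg
Spry2, chr14:105896820-105897069, minus strand: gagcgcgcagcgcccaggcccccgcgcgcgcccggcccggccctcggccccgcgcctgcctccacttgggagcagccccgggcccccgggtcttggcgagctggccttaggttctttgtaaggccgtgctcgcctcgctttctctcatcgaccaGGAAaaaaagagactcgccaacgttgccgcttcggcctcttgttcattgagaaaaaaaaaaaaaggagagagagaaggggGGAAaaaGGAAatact
Both stretches are 62.4% GC, and the core occurs 1 time in that of Spry1 and 3 times in that of Spry2. Promoters of 7 of the members, in 8 entries, were searched. Spry4 was left out of the search, and the RefSeq table gave no promoter for Dusp4 and Etv4. On either strand GGAA occurred in 7 of those 8 entries and in 93.4% of 32851 promoters of the same length, so it does not set the members apart. The longer ETS core CCGGAA, which contains it, was in 0 of 8 member entries against 12.03% of all promoters. The octamers TGAATGAA and TGAATGGA, bound by the ERK-controlled repressor Capicua, were in 0 of 8 against 1.08% and 1.01%, and the AP-1 site TGANTCA was in 0 of 8 against 6.75%. With 8 entries and motifs this rare, counts of 0 say little about whether the members lack them. These are matches of letters in a short window and say nothing about binding.

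Etv4 and Etv5 encode closely related ETS activators. Etv4 (NM_001316365, chromosome 11, 101769747 to 101785310, minus strand) was the least abundant member, at 3.86, 3.55 and 1.82 CPM (Ctrl 1, 2 and 3) and at 10.51, 9.36 and 6.14 CPM (KO 1, 2 and 3). The groups did not overlap, although Ctrl 3 rests on only 28 counts. Its mean went from 3.08 ± 1.10 to 8.67 ± 2.27 CPM (SD, n = 3 each), a ratio of 2.82, with an exact permutation p of 0.1. The log2 fold change of Etv4, 1.48 (SE 0.433), had the highest value of the 10 members and did not pass edgeR's adjusted test (adjusted p = 0.0634, from 0.00840 to 0.876 over 16 alternatives). Etv4 passed with DESeq2 and in the fit without KO 1 (1.39, adjusted p = 0.0487), and was at 0.11 with libraries scaled to equal endothelial markers. In the authors' deposited table Etv4 has a log2 fold change of 1.57 and an adjusted p of 0.00577.

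Etv5 (NM_023794, chromosome 16, 22381313 to 22439570, minus strand) was at 23.3, 26.5 and 26.5 CPM (Ctrl 1, 2 and 3) and at 20.8, 36.3 and 29.3 CPM (KO 1, 2 and 3). KO 1 was the lowest of all 6 libraries and KO 2 the highest, so the groups overlapped. Its log2 fold change was 0.18 (SE 0.287, edgeR adjusted p = 0.707, from 0.0318 to 0.998 over 16 alternatives). With libraries scaled to equal endothelial markers Etv5 was at −1.11 and called lower. The difference between the fold changes of Etv4 and Etv5 was not tested.

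Dusp6 (NM_026268, chromosome 10, 99263231 to 99267489, plus strand) encodes a cytoplasmic phosphatase selective for ERK and was the most abundant member. It stood at 288, 372 and 417 CPM (Ctrl 1, 2 and 3) and 609, 501 and 432 CPM (KO 1, 2 and 3). The groups did not overlap, but the highest Ctrl library and the lowest KO library were close. The mean went from 359 ± 65.5 to 514 ± 89.5 CPM (SD, n = 3 each), a ratio of 1.43, with an exact permutation p of 0.1. The log2 fold change was 0.52 (SE 0.258), short of the threshold in edgeR's adjusted test (adjusted p = 0.213, from 0.0979 to 0.445 over 16 alternatives, passing in 0). With libraries scaled to equal endothelial markers its sign turned, to −0.75. Between 6400 and 15540 counts per library stand behind these values, so depth does not limit them.

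Dusp5 (NM_001085390, chromosome 19, 53529145 to 53541809, plus strand), a nuclear phosphatase for ERK that is prominent in endothelium, was at 206, 163 and 185 CPM in Ctrl 1, 2 and 3. It was at 124, 297 and 242 CPM in KO 1, 2 and 3. KO 2 and KO 3 were above all Ctrl libraries and KO 1 below all of them. Dusp5 had a log2 fold change of 0.26 (SE 0.335, edgeR adjusted p = 0.636, from 0.0596 to 0.983 over 16 alternatives). Without KO 1 it was 0.62 (adjusted p = 0.0698), with GC offsets −0.24, and with libraries scaled to equal endothelial markers −1.07. An annotated antisense gene overlaps Dusp5, so reads of both strands are in its count.

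Dusp4 (NM_176933, chromosome 8, 34807610 to 34819894, plus strand), an inducible nuclear phosphatase, had the narrowest range of the members across libraries. It was at 24.6, 17.6 and 17.8 CPM (Ctrl 1, 2 and 3) and at 20.8, 22.1 and 19.4 CPM (KO 1, 2 and 3), so all KO libraries lay within the range of the Ctrl libraries. The highest library was 1.40 times the lowest. For Dusp4 the log2 fold change was 0.05 (SE 0.271, edgeR adjusted p = 0.912, from 0.0240 to 0.977 over 16 alternatives), with a sign that turned to −0.28 with GC offsets. Scaling to equal endothelial markers gave −1.30, which was called lower.

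Spred2 (NM_033523, chromosome 11, 19924442 to 20024026, plus strand), which blocks the activation of Raf, was at 15.7, 12.7 and 12.7 CPM in Ctrl 1, 2 and 3. In KO 1, 2 and 3 it was at 15.8, 15.4 and 18.8 CPM. The groups overlapped in Ctrl 1 and KO 2 and differed little otherwise. Spred2 had a log2 fold change of 0.28 (SE 0.277, edgeR adjusted p = 0.527, from 0.0647 to 0.949 over 16 alternatives), and −1.03 with libraries scaled to equal endothelial markers.

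Spred1 (NM_033524, chromosome 2, 117121071 to 117182279, plus strand), which recruits the Ras inhibitor neurofibromin to the membrane, had the widest ratio of highest to lowest library among the members. It stood at 10.3, 16.8 and 17.0 CPM (Ctrl 1, 2 and 3) and 28.9, 7.01 and 3.77 CPM (KO 1, 2 and 3). KO 1 was the highest of all libraries and KO 2 and KO 3 the lowest, so the highest was 7.66 times the lowest. Over all libraries the log2 fold change was −0.15 (SE 0.689, edgeR adjusted p = 0.900, from 0.0413 to 0.980 over 16 alternatives). Without KO 1 Spred1 was lower in KO (−1.37, adjusted p = 0.0413), and without KO 2 or KO 3 the sign turned (0.15 and 0.30).

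The deposited table holds a further, shorter entry of Spred1 (NM_001277256), and the entries gave different answers. The shorter entry ends at 117172854, so that 9425 bases at the 3′ end are counted in the longer entry and not in it. Wholly inside these bases are 2 of the 7 exons of the longer entry, with 5080 of its 6016 exonic bases. Counts of the shorter entry were 94, 118 and 71 (Ctrl 1, 2 and 3) and 49, 44 and 24 (KO 1, 2 and 3). This is 3.21, 4.87 and 4.63 CPM against 1.92, 1.75 and 0.823 CPM. The KO libraries were all below the Ctrl libraries here, and group means were 4.24 ± 0.895 CPM for Ctrl and 1.499 ± 0.591 CPM for KO (SD, n = 3 each). With the shortest entry of each gene, an alternative chosen after seeing the data, the log2 fold change of Spred1 was −1.498 and did not pass edgeR's adjusted test (adjusted p = 0.0892, within the range of 0.0413 to 0.980 given above). The authors' deposited table has the shorter entry at −1.41 (adjusted p = 0.0412) and the longer at −0.08 (adjusted p = 0.944).

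Counts held by the longer entry of Spred1 alone were 7.11, 11.97 and 12.4 CPM (Ctrl 1, 2 and 3) and 27.0, 5.26 and 2.95 CPM (KO 1, 2 and 3). In KO 1 they made up 93.4% of the gene's counts (688 of 737), against 68.9% to 72.8% in Ctrl and 75% and 78.2% in KO 2 and KO 3. The high Spred1 value of KO 1 thus lay outside the shorter entry, as the plot of counts by part of the gene shows. The counts do not tell exons from introns. With at most 118 counts of the shorter entry in a library, the precision of its levels is limited.

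**Figure D2:**
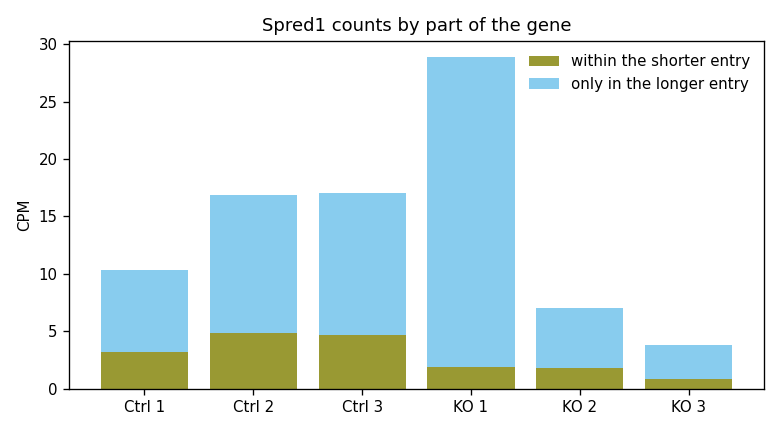
Spred1 counts in each library in CPM, split into those within the shorter transcript entry (lower part of each bar) and those held only by the longer entry (upper part). In KO 1 the upper part is 27.0 CPM and the lower part 1.92 CPM, and the lower part is below that of every Ctrl library in all 3 KO libraries.

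Spry2 and Spred1 (its longer entry), the members with the widest spread, were high and low in the same libraries. Ctrl 2, Ctrl 3 and KO 1 were high in Spry2 (7.38, 7.55 and 7.31 log2 CPM), and Ctrl 1, KO 2 and KO 3 were low (5.58, 4.65 and 5.86 log2 CPM). For Spred1 the values were 4.08, 4.09 and 4.85 log2 CPM in the former libraries and 3.37, 2.81 and 1.92 log2 CPM in the latter. The shorter entry of Spred1 did not follow Spry2 in KO 1, where it was at 1.92 CPM, below every Ctrl library. Both have the lowest transcript GC content of the members, 41.2% for Spred1 and 46.2% for Spry2, against 49.0% to 58.7% for the other members. The median of the genes tested was 50.4%, with 7.43% of them lower in GC than Spred1 and 27.2% lower than Spry2. Across all genes tested, the mean log2 CPM of the GC-poorest 20% (below 44.6% GC) was compared with that of the GC-richest 20% (above 56.1%). The former minus the latter was also highest in Ctrl 2, Ctrl 3 and KO 1, at 0.66, 0.66 and 0.51. This difference was −1.31 and −1.21 in KO 2 and KO 3. Ctrl 1 lay between these sets at −0.16, as it did for Spred1.

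With offsets that remove a smooth trend of counts on GC content in each library, the spread within groups of log2 levels went from 1.22 to 1.03 (SD) for Spry2, from 1.10 to 0.70 for Spred1 and from 0.48 to 0.20 for Dusp5, whose transcript is GC-rich at 56.7%. This spread also fell for Dusp6 (0.26 to 0.21) and Etv5 (0.30 to 0.20). It rose for Spry1 (0.36 to 0.41), Etv4 (0.51 to 0.68), Spry4 (0.25 to 0.28), Spred2 (0.17 to 0.21) and Dusp4 (0.20 to 0.32). After the offsets the log2 fold change was −0.56 for Spry2 and 0.14 for Spred1, neither of them past the threshold. This comparison was made after the values of Spry2 and Spred1 were seen, and the part of GC content in their levels was not tested further.

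**Figure D3:**
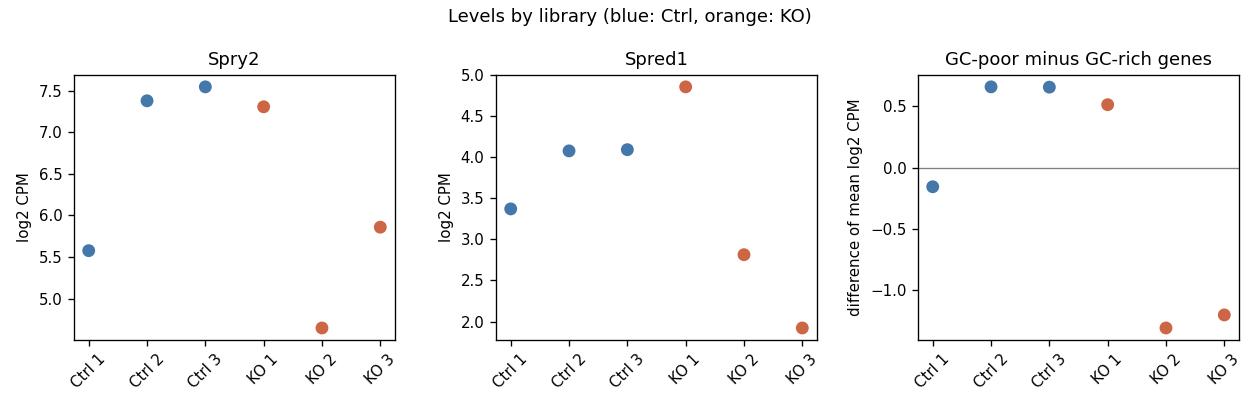
Spry2 (left) and Spred1 (middle) in log2 CPM by library, and the mean log2 CPM of the GC-poorest 20% of genes minus that of the GC-richest 20% (right), with Ctrl in blue and KO in orange. Ctrl 2, Ctrl 3 and KO 1 are the high libraries in all 3 panels. The Spred1 values are those of the longer entry.

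Per kilobase of exon, the members fell into a high and a low set. In Ctrl, Dusp6 was at 128 ± 23.4, Dusp5 at 74.7 ± 8.65 and Spry2 at 64.1 ± 36.1 CPM per kilobase (SD, n = 3), and Dusp5 and Spry2 did not differ beyond their spread. Spry1 followed at 14.02 ± 3.98 CPM per kilobase. Dusp4 (7.29 ± 1.45), Etv5 (6.40 ± 0.464), Spred2 (4.81 ± 0.609) and Spry4 (4.08 ± 0.642) formed a run in which neighbours differed by about their SDs or less, except Etv5 and Spred2. Spred1 (2.45 ± 0.634) and Etv4 (1.28 ± 0.458) were the lowest. In KO, Dusp6 (184 ± 32.0) and Dusp5 (89.4 ± 35.7) led again, while Spry1 (36.6 ± 5.88) stood beside Spry2 (38.6 ± 33.3). Since reads in introns may be part of these counts, levels of genes with long introns, such as Spred2 and Etv5, may be overstated per length.

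Feedback genes are made by endothelium and by other retinal cells, so their levels were also set against the endothelial markers. Taken as log2 CPM minus the mean of the 15 endothelial markers in the same library, Spry1 was at −2.54, −2.42 and −2.31 (Ctrl 1, 2 and 3) and at −2.58, −2.26 and −2.02 (KO 1, 2 and 3). The groups overlapped, so Spry1 moved about as far as the endothelial markers did. Etv4 overlapped as well, at −5.12, −5.84 and −6.80 for Ctrl and −5.40, −5.71 and −5.92 for KO. Dusp6 was at 1.09, 0.86 and 1.02 for Ctrl and 0.46, 0.03 and 0.21 for KO, and was lower relative to the markers in every KO library.

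On this scale 7 of the 10 members were lower in KO without overlap and 3 overlapped (Spry1, Spry2 and Etv4), against 60.8% of all genes tested that were lower without overlap. In the fit with libraries scaled to equal endothelial markers, 3 members were called lower (Spry2, Dusp4 and Etv5) and 0 higher, against 49.3% of genes called lower. That scaling moved the median of all genes to −1.27 on the log2 scale. Relative to this median, the members' median of −1.05 was slightly higher. The plot of fold changes under 3 scalings shows that only Spry1 and Etv4 stayed above 0 in each.

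**Figure D4:**
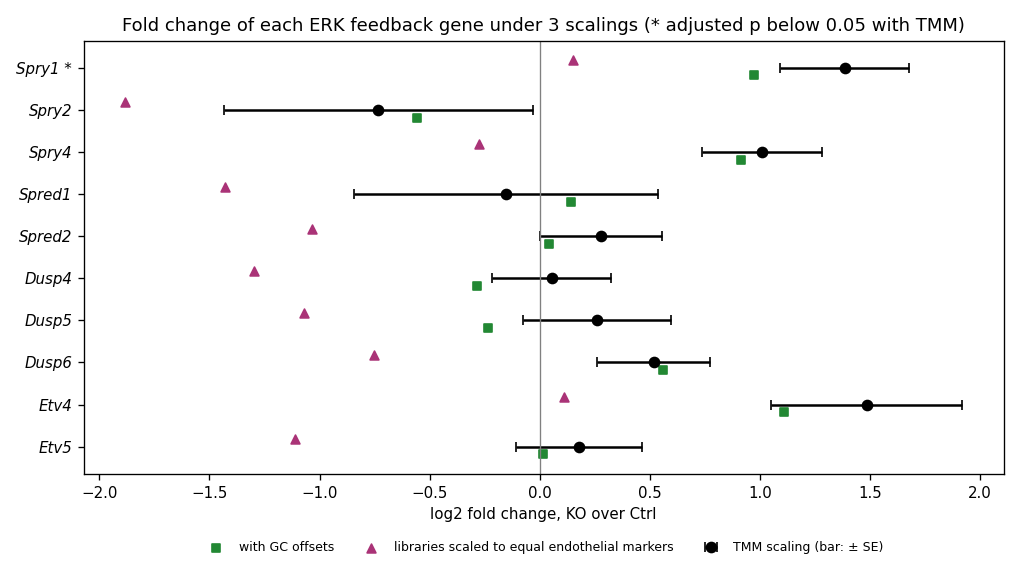
Log2 fold change, KO over Ctrl, of each ERK feedback gene with TMM scaling (circles, bars ± SE), with GC offsets (squares) and with libraries scaled to equal endothelial markers (triangles). Under the last, Spry4, Spred2, Dusp4, Dusp5, Dusp6 and Etv5 turn from above to below 0, Spry2 and Spred1 stay below, and Spry1 and Etv4 stay just above it. With GC offsets Dusp4 and Dusp5 turn below 0 and Spred1 above it.

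Markers of other retinal cell types also differed between libraries. Of 12 Müller glia and astrocyte markers 3 rose and 0 fell (Glul, Pax2 and Vim). The log2 fold change was above 0 in 7 of the 12 and below 0 in 5, from −1.90 to 2.38 (median 0.62). The summed level of the 12 was between 2755 and 3444 CPM in Ctrl and between 3220 and 17738 CPM in KO, with none at 0 in all libraries of a group. Of 7 progenitor markers tested 1 rose (Ccnd1, which is also an ERK output gene) and 0 fell, with a summed level of 912 to 1858 CPM in Ctrl and 650 to 1215 CPM in KO. The 14 microglia markers had summed levels of 262 to 1542 CPM in Ctrl and 255 to 13078 CPM in KO. Their part in the members' levels was not tested.

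Other genes of the pathway were grouped in 6 lists, in which 17 genes rose and 2 fell in all. Over all genes tested, 5.85% were called higher and 10.3% in either direction. With libraries scaled to equal endothelial markers 2 rose and 20 fell, against 49.3% of all genes tested called lower. Without Ctrl 1, 2 or 3 or KO 2 the count was 0, without KO 3 it was 12 and without KO 1 it was 37. Over all genes tested the count was 0 in the former fits, 866 of 16550 without KO 3 and 4927 of 16565 without KO 1.

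Upstream of the members, 1 of 9 tested VEGF ligands and receptors rose and 0 fell, and 9 of 9 had a fold change above 0 (median 0.85). Flt4 (VEGFR3), a receptor of tip cells and lymphatics, was the one that rose, from 61.3 ± 6.65 to 152 ± 25.7 CPM (log2 fold change 1.31, SE 0.241, edgeR adjusted p = 0.0231). With libraries scaled to equal endothelial markers Flt4 was at 0.03. Kdr, the main signalling receptor and also 1 of the endothelial markers, was at 0.16 (adjusted p = 0.807), Flt1, a decoy receptor, at 0.85 (adjusted p = 0.0991) and the ligand Vegfa at 0.69 (adjusted p = 0.201), none past the threshold. Under that scaling all 3 were below 0, and Kdr was called lower (−1.15, edgeR adjusted p = 0.0331, from 0.0331 to 0.981 over 16 alternatives). Flt1 passed with DESeq2 (adjusted p = 0.0437, from 0.0437 to 0.337 over 16 alternatives).

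Among 13 tested FGF ligands and other growth factor receptors 0 passed edgeR's adjusted test, with a median log2 fold change of 0.70. At an unadjusted p below 0.05, 4 were higher and 2 lower, against 16.2% of all genes tested that were higher at that level. DESeq2 called 3 higher and 1 lower, against 12.6% of all genes with a DESeq2 adjusted p called higher, and limma-voom called 0. The scaling to equal endothelial markers gave 0 higher and 3 lower, against 49.3% of all genes tested called lower. Without KO 1 the count was 2 higher and 1 lower, against 2520 higher and 2407 lower of 16565 genes tested.

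In the Ras-ERK cascade itself, 2 of 25 genes rose, 2 fell and 21 did not pass (median 0.26). Rras, a Ras-related GTPase abundant in vessels, rose from 6.04 ± 1.03 to 22.6 ± 1.59 CPM (log2 fold change 1.90, adjusted p = 0.0212), and Mapk3, which encodes ERK1, rose from 41.5 ± 7.66 to 126 ± 23.9 CPM (1.61, adjusted p = 0.0219). Shoc2, a scaffold that promotes Raf activation, fell from 191 ± 20.8 to 76.2 ± 29.8 CPM (−1.33, adjusted p = 0.0377), and Frs2, the adaptor of FGF receptors, fell from 49.6 ± 7.89 to 21.4 ± 2.28 CPM (−1.21, adjusted p = 0.0288), all in edgeR. The transcripts of Shoc2 and Frs2 are at 40.4% and 45.1% GC and those of Rras and Mapk3 at 58.1% and 57.6%. The median of the genes tested was 50.4%. Scaled to equal endothelial markers, 0 of the list were called higher and 11 lower, against 49.3% of all genes tested called lower. Under that scaling Rras was at 0.65 and Mapk3 at 0.32, neither past the threshold. DESeq2 called 8 higher and 3 lower, against 12.6% of all genes with a DESeq2 adjusted p called higher. With GC offsets the call of Frs2 was lost (−0.94, edgeR adjusted p = 0.0511, from 0.000613 to 0.146 over 16 alternatives).

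Of the 8 tested relatives of the members, the other Sprouty, Spred and MAP kinase phosphatase genes, 1 rose, 0 fell and 7 did not pass (median 0.69). This was Dusp2, an inducible nuclear phosphatase, at 35.8, 67.3 and 69.1 CPM (Ctrl 1, 2 and 3) and at 191, 382 and 316 CPM (KO 1, 2 and 3). The groups were far apart, with a log2 fold change of 2.37 (SE 0.374, edgeR adjusted p = 0.0212), and Dusp2 was still called higher with libraries scaled to equal endothelial markers (1.14). Over the list, that scaling gave 1 higher and 3 lower, against 49.3% of all genes tested called lower. GC offsets gave 1 higher and 1 lower. Dusp2 is also known from immune cells. The mean of the 14 microglia markers was 5.78, 6.23 and 3.56 log2 CPM in Ctrl 1, 2 and 3. In KO 1, 2 and 3 that mean was 2.86, 8.95 and 6.54 log2 CPM. The part of microglia in the level of Dusp2 was not tested.

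Of 19 further output genes of ERK 11 rose, 0 fell and 8 did not pass, against 5.85% of all genes tested called higher. The median log2 fold change was 1.23, with all 19 above 0. This list, like the others, was chosen with earlier results of these data known, so its count is not an independent test. Phlda1, an early response gene, rose from 67.2 ± 8.38 to 299 ± 72.6 CPM (2.15, adjusted p = 0.0211). Ier3, a survival factor induced early, rose from 101 ± 7.42 to 336 ± 110 CPM (1.73, adjusted p = 0.0224), and Ccnd1, the G1 cyclin, from 85.4 ± 1.99 to 201 ± 9.99 CPM (1.23, adjusted p = 0.0224). Maff (1.51, adjusted p = 0.0228) and Nab2, a repressor of Egr factors (1.91, adjusted p = 0.0229), rose as well, all in edgeR. The count moved with the setting: 8 rose with GC offsets, 7 without KO 3, 13 without KO 1 and 0 when any other single library was left out. With libraries scaled to equal endothelial markers 0 rose and 1 fell, against 49.3% of all genes tested called lower. The difference in counts between this list and the feedback genes was not tested.

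Of 8 transcription factors that ERK controls, 2 rose and 0 fell (median 0.83). Erf, an ETS repressor that ERK sends out of the nucleus, rose from 5.13 ± 0.649 to 30.9 ± 3.25 CPM (log2 fold change 2.59, adjusted p = 0.0206), and Elk3, a ternary complex factor of endothelium, from 84.9 ± 32.4 to 217 ± 33.5 CPM (1.36, adjusted p = 0.0435, both from edgeR). Erf was still called with libraries scaled to equal endothelial markers (1.25), where Elk3 was at 0.15.

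**Figure D5:**
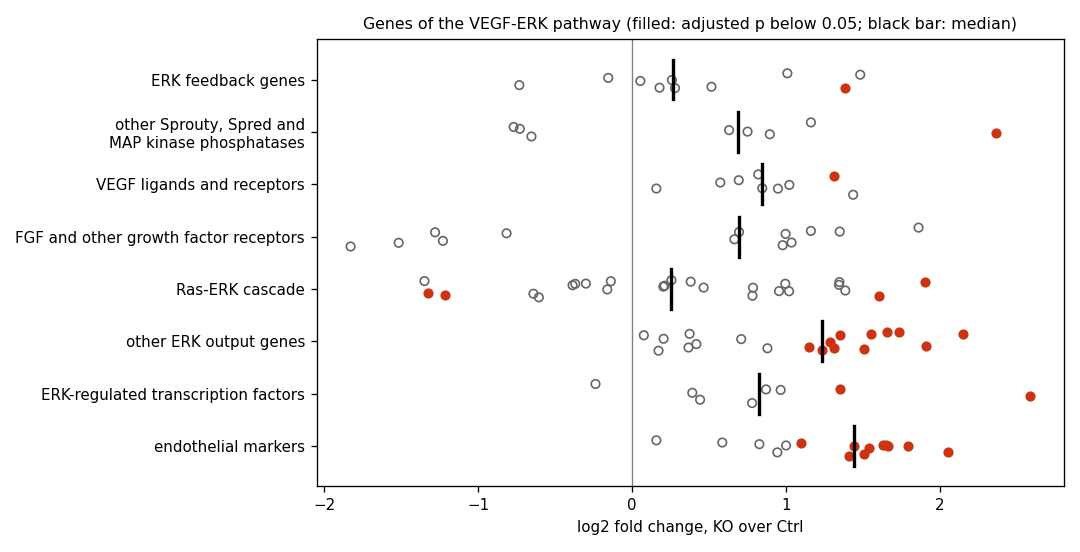
Log2 fold change, KO over Ctrl, of each tested gene of the VEGF-ERK pathway by list, with endothelial markers at the bottom. Filled points passed the adjusted threshold of 0.05, open points did not, vertical jitter has no meaning and the black bar is the median, which is 0.27 for the feedback genes, 1.23 for the other ERK output genes and 1.45 for the endothelial markers. With libraries scaled to equal endothelial markers the median of all genes is −1.27, and 0 other ERK output genes rise and 1 falls.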

How the data were processed

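RNA from 6 pups (3 Ctrl, 3 KO) was sequenced as single reads of 50 bases from amplified full-length cDNA, per the labels' protocols. The build is mm10, and the tools listed are STAR, Trimmomatic 0.36, deepTools, edgeR and DESeq2, per the submitters' processing notes. Which tool counted reads, and on which annotation, is not given in the sources used here. Deposited were raw counts for 34035 transcript entries. The authors further deposited normalized counts (a signal, equal to the count divided by 1 factor per library), RPKM, a length, log2 fold changes, a Wald score, p-values and adjusted p-values, per the file headers. RPKM was not used, because the deposited length is the span on the genome (within 2% for 80.4% of 19043 matched genes). The count column used for Ctrl 3 carries a number unlike its title, and its ratio to the normalized column was constant, as in the other libraries.

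The longest entry of each symbol was used. KO was compared with Ctrl by edgeR 4.0.16 in R 4.3.3 (quasi-likelihood test, TMM, filterByExpr, no covariate) on deposited counts, with two-sided Benjamini-Hochberg adjustment over 16217 genes at 0.05. The SE is the log2 fold change divided by the square root of F. Alternatives used limma 3.58.1 and DESeq2 1.42.0, other scalings, filters and entries, GC offsets, a replicate block, and each library left out. Tests were tried on simulated data with the same dispersion for every gene and no GC trend. These libraries differ in both, so that trial does not give the error rates here. Coordinates and promoters are from RefSeq (GRCm38.p6), and GC and exon lengths from GENCODE M21 (GC for 99.24% of tested genes). Log2 CPM used a prior count of 0.5.

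Genes named are the members, Rnf20, up to 5 called genes of each pathway list with the smallest adjusted p, and Vegfa, Kdr, Flt1 and Flt4; up to 3 markers of each cell type list could be named. Glul and Pax2, and Fos, Egr1 and Egr2, were named after their values were seen. The members, gene lists and tests were chosen with earlier results of these data known. The other marker lists gave, as rises and falls of those tested, 0 and 2 of 14 (photoreceptor), 0 and 4 of 12 (inner retinal neuron), 2 and 0 of 7 (ganglion cell), 1 and 0 of 12 (mural cell), 6 and 0 of 7 (erythroid) and 2 and 0 of 4 (platelet).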

Additional observations from a re-analysis of the deposited data

How the results depend on the processing

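The count of all genes called, 1668 (56.8% higher in KO), was 8065 (71 higher, 7994 lower) with libraries scaled to equal endothelial markers, 3556 with DESeq2, and 0 to 4927 when 1 library was left out. It was 0 without Ctrl 1, Ctrl 2, Ctrl 3 or KO 2 (4005, 3434, 3479 and 3576 genes at an unadjusted p below 0.05), 866 without KO 3 and 4927 without KO 1, which held 1667 of the 1668. With GC offsets it was 2100, of which 43.7% were higher. The member count of 1 was 2 with other size factors, 3 with libraries scaled to equal endothelial markers, 3 with DESeq2 and 0 to 4 when 1 library was left out. The fits at 0 were those without Ctrl 1, 2 or 3 or KO 2 or 3. In these, 3 or 4 members were at an unadjusted p below 0.05. Over all genes that number was between 3434 of 16722 (without Ctrl 2) and 4912 of 16550 (without KO 3). The fit at 4 was that without KO 1 (Spry1, Spry4 and Etv4 higher, Spred1 lower), where 4927 of 16565 genes tested were called. The count of called pathway genes, 19, was 35 with DESeq2 and 0 to 37 when 1 library was left out (37 without KO 1, 12 without KO 3, 0 otherwise). Rnf20 passed with libraries scaled to equal endothelial markers (−1.94) and without KO 1 (−0.71), and was between −0.75 and −0.58 when 1 library was left out. The cause of these shifts was not tested.

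With the replicate block the counts were 1 for all genes, 0 for members and 0 for pathway genes (3407 genes and 3 members at an unadjusted p below 0.05), and with GC offsets and the replicate block together they were 2, 0 and 0 (4250 genes and 2 members). Spry1 was not called in either (1.41 and 1.02). Deviations of same-numbered libraries correlated at −0.32, 0.07 and −0.23 and no library correlated best with its own number. These deviations also hold library-wide differences, such as that by GC content, so they cannot decide whether the numbers pair the libraries. The labels state no pairing.

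Signs turned with libraries scaled to equal endothelial markers for Spry4 (−0.27), Spred2 (−1.03), Dusp4 (−1.30), Dusp5 (−1.07), Dusp6 (−0.75), Etv5 (−1.11), Vegfa (−0.60), Kdr (−1.15), Flt1 (−0.44) and Ccnd1 (−0.060). They turned with GC offsets for Spred1 (0.14), Dusp4 (−0.28) and Dusp5 (−0.24), and with GC offsets and the replicate block for Dusp4 (−0.31), Dusp5 (−0.25) and Etv5 (−0.0013). With 1 library left out, Spred1 ranged from −1.37 to 0.30, Dusp4 from −0.031 to 0.23 and Kdr from −0.053 to 0.52. Depth limits Etv4 (28 to 268 counts) and the shorter Spred1 entry (24 to 118) most.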

Other observations

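Among the ERK output genes that were not called, 3 early response genes were picked after their values were seen. Fos had a log2 fold change of 0.21 (adjusted p = 0.700), Egr1 of 0.08 (adjusted p = 0.894) and Egr2 of 0.17 (adjusted p = 0.810) in edgeR's quasi-likelihood test (Benjamini-Hochberg). Egr1 was at 1933, 1791 and 1893 CPM in Ctrl 1, 2 and 3 and at 1144, 2312 and 2468 CPM in KO 1, 2 and 3. Fos was at 2103, 1900 and 2136 CPM in Ctrl 1, 2 and 3 and at 1390, 2654 and 3037 CPM in KO 1, 2 and 3. In both, KO 1 was the lowest library and KO 2 and KO 3 the highest, as in Dusp5.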
